A study of Rattus norvegicus with 6 samples.

Results

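The glucocorticoid receptor gene Nr3c1 and genes that glucocorticoids are known to induce were followed in the thyroid of the pregnant rat. Rows were chosen by gene symbol from a list of 10 genes, written with earlier results of these data in view. Of these, 9 were among the 15388 genes counted in each sample, namely Nr3c1, Hsd11b1, Fkbp5, Zbtb16, Tsc22d3, Sgk1, Klf9, Mt2A and Errfi1, and 8 of the 9 had enough reads to be tested. The symbol Mt1a was not among the rows. Mt1, for which RefSeq lists Mt1a as a synonym, was counted under its own symbol and is described beside the members without being counted as one.

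Polyadenylated RNA was sequenced from whole thyroid of adult Sprague-Dawley rats that were not pregnant (NP) or were in late pregnancy (LP, day 18, counted from the vaginal plug as day 1), with 3 samples in each group. No transgene or treatment is named in the sources used here, and the age of the rats is given there only as adult. Between 2752144 and 3449857 reads were counted per sample, and levels are given as CPM, which is each gene's read count brought to a common library size. A level resting on fewer than 3 reads, between 0.87 and 1.09 CPM by sample, was not told from 0. Follicular cell genes such as Tg and Pax8 were high in every sample, with a summed level of 232000 to 259000 CPM over 10 markers. Nearly all of this sum was Tg, at 223900 to 250700 CPM by sample, while Pax8 was at 436.7 to 481.2 CPM. Parathyroid markers summed to 4470 to 4850 CPM in NP and 3730 to 4050 CPM in LP over 3 genes. C cell markers summed to 14100 to 15100 CPM in NP and 12400 to 13200 CPM in LP over 4 genes. Both sums were lower in LP without overlap, but only 1 gene of each list was called lower, Pth and Calca. Markers of both were present throughout, so the values are those of the whole gland with its neighbours. Skeletal muscle markers summed to 16.1 to 70.3 CPM in NP and to 3320 to 3490 CPM in LP over 11 genes. Of the 9 tested, 8 were called higher, beside 15.3% of all genes. In bulk tissue, fewer cells of a type and less RNA per cell cannot be told apart. The labels give 3 rats in each group. In both groups, however, replicates 2 and 3 were as alike as repeated counts of the same library (chi-square per degree of freedom of 1.02 in NP and 0.995 in LP), whereas replicate 1 stood apart from them (3.70 to 4.11). Replicates 2 and 3 were therefore averaged and counted as 1 sample, and every mean ± SD has n = 2. The fitted fold changes, with their errors, intervals, p-values and calls, rest instead on all 6 samples taken as separate unless stated. Their errors may therefore be too small. For genes split by replicate number in both groups they may instead be too large, because the fit takes no account of replicate number. Ratios of LP to NP are also given for replicate 1 and for replicates 2 and 3 on their own.

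The glucocorticoid receptor is a nuclear receptor that waits in the cytoplasm in a complex with Hsp90 and its partner proteins. On binding corticosterone, the main glucocorticoid of the rat, it enters the nucleus and switches genes on or off. Some of its target genes encode brakes on the hormone signal itself, such as the immunophilin encoded by Fkbp5, which lowers the affinity of the receptor for its ligand. Glucocorticoids act on nearly every tissue, and blood glucocorticoid levels change with stress, with the hour of the day and in pregnancy. The hour at which the thyroids were collected is not given in the sources used here.

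In LP the message of the receptor itself was slightly higher than in NP, whereas 4 of the induced genes, Zbtb16, Fkbp5, Tsc22d3 and Sgk1, were lower, by 3.55-fold, 2.74-fold, 1.82-fold and 1.55-fold. The other 3 members with enough reads, Hsd11b1, Klf9 and Errfi1, had fold changes between 0.921 and 1.05 (LP over NP). At an adjusted p-value below 0.05 in the quasi-likelihood test of edgeR, 1 of the 8 members tested was called higher and 4 lower, beside 15.3% and 11.7% of all 11738 genes tested. The same contrast was in view when the members were chosen, so these calls describe the members and are not evidence for a pattern, and no p-values are given for them. The median log2 fold change was -0.38 over the 8 members and -0.009 over all genes tested. With a fold change above 2 also required, Zbtb16 and Fkbp5 remained, beside 5.44% of all genes in either direction, 4.90% upward and 0.537% downward. In the order of fold changes from the most negative, Zbtb16 was at place 10 and Fkbp5 at place 22 of all genes tested.

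**Figure D1:**
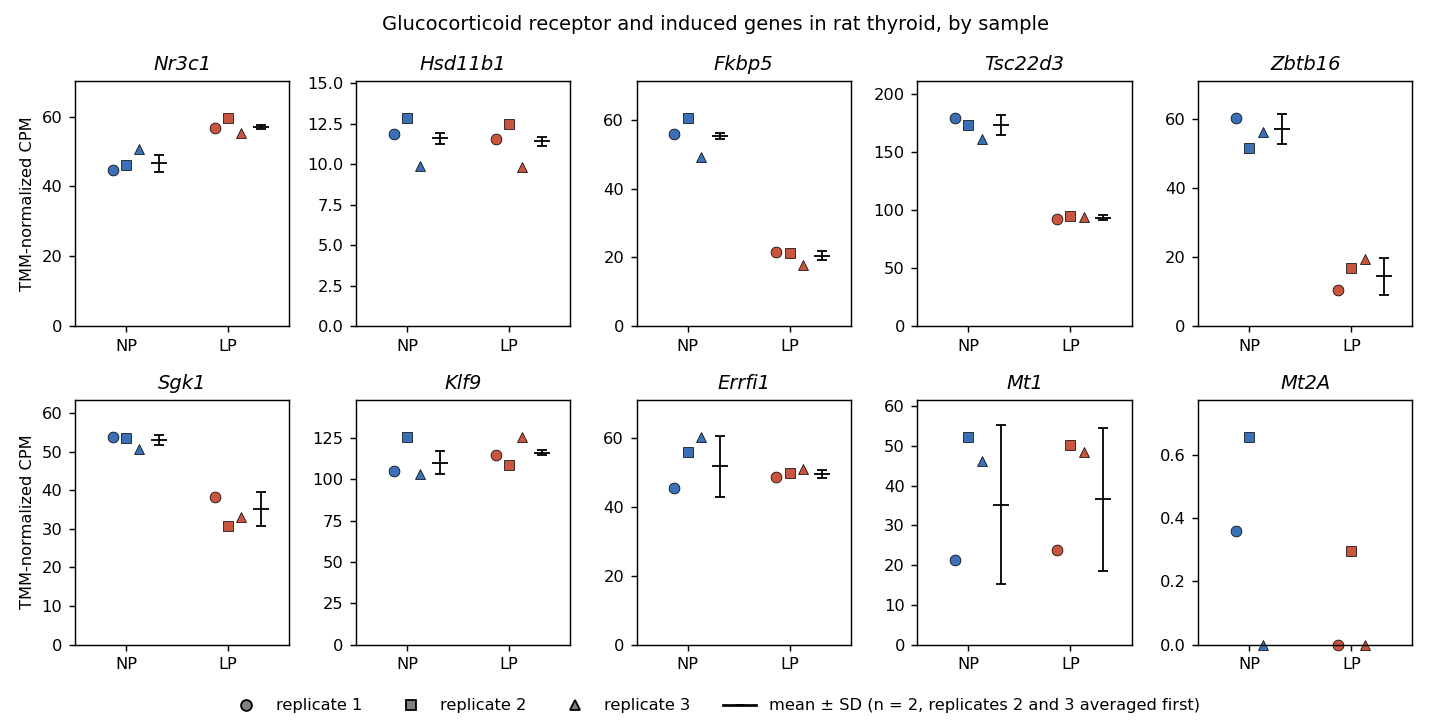
Level of each gene in the 6 samples, in CPM with TMM normalization on a linear axis from 0 (blue NP, red LP; circle, square and triangle for replicates 1, 2 and 3; black bar, mean ± SD with n = 2, left out for Mt2A). Zbtb16, Fkbp5, Tsc22d3 and Sgk1 were lower in each LP sample than in each NP sample, and Mt1 was split by replicate number in both groups.

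Nr3c1 (ENSRNOT00000044287), the receptor, was measured at 44.8, 46.0 and 50.8 CPM in NP replicates 1, 2 and 3 and at 56.7, 59.5 and 55.4 CPM in LP replicates 1, 2 and 3. Each LP sample was above each NP sample, by a small margin. Groups that do not overlap were found for 40.1% of all genes tested, 21.2% with LP higher. The mean rose from 46.6 ± 2.5 CPM (SD, n = 2) to 57.1 ± 0.51 CPM. The fitted log2 fold change was 0.28 (SE, the standard error, 0.084, 95% interval 0.10 to 0.45). This call was lost without NP replicate 1, without NP replicate 2, without LP replicate 2, with replicates 2 and 3 alone, with library totals as the only scaling, and with DESeq2 in place of edgeR. The log2 fold change stayed between 0.20 and 0.33 over these and all other settings. The ratio was 0.34 in replicate 1 and 0.25 in replicates 2 and 3 on the same scale.

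Hsd11b1 (ENSRNOT00000048074) encodes the enzyme that regenerates active corticosterone from its inert form inside cells. Its reads were few, 33, 39 and 30 in NP and 36, 42 and 33 in LP. The groups overlapped, with means of 11.6 ± 0.34 CPM and 11.4 ± 0.27 CPM (SD, n = 2). The log2 fold change was -0.03 with a 95% interval from -0.44 to 0.38, so a change of the size seen for Nr3c1 in either direction was within the error. Hsd11b2, which encodes the enzyme of the opposite reaction, had 3, 51 and 26 reads across NP, against 11, 49 and 39 across LP. It differed more between replicate 1 and the other samples than between the groups (log2 fold change 0.16, SE 0.50). With replicates 2 and 3 summed and replicate number fitted as a block, the log2 fold change of Hsd11b2 was 0.15 (SE 0.23). H6pd, which supplies the cofactor of the Hsd11b1 reaction, and Nr3c2, the mineralocorticoid receptor that also binds corticosterone, had log2 fold changes of 0.17 (SE 0.12) and 0.28 (SE 0.14). Of the list of hormone supply and related steroid receptors, 5 of 8 genes were present. In edgeR 0 of the 5 passed the test, beside 27.0% of all genes. The count was also 0 at an unadjusted p-value below 0.05 and with DESeq2, but H6pd was called without NP replicate 2 (log2 fold change 0.35, adjusted p = 0.0176 in edgeR).

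Fkbp5 (ENSRNOT00000033119), the co-chaperone that restrains the receptor, was at 55.9, 60.5 and 49.1 CPM in NP and at 21.5, 21.1 and 17.9 CPM in LP. Each NP sample was far above each LP sample. The mean fell from 55.4 ± 0.81 CPM to 20.5 ± 1.4 CPM (SD, n = 2). The fitted log2 fold change was -1.45 (SE 0.12, 95% interval -1.70 to -1.21). The log2 ratio was -1.38 in replicate 1 and -1.49 in replicates 2 and 3. Fkbp4, the paralogue that competes with it for Hsp90 and favours receptor activity, fell far less, from 282 ± 5.2 CPM to 234 ± 9.1 CPM (log2 fold change -0.28, SE 0.055, adjusted p = 0.000891 by edgeR's quasi-likelihood test). Per 100 reads of Fkbp4, Fkbp5 had 19.6, 21.5 and 17.9 reads across NP, against 8.95, 9.16 and 7.99 across LP. Per 100 reads of the receptor, Fkbp5 had 125, 131 and 96.8 reads across NP, against 37.9, 35.5 and 32.3 across LP, a change of -1.74 on the log2 scale.

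Tsc22d3 (ENSRNOT00000087583) encodes the leucine zipper protein GILZ, which carries part of the anti-inflammatory action of glucocorticoids. Its level was 178.6, 172.6 and 160.8 CPM in NP and 92.0, 94.9 and 94.1 CPM in LP. The LP samples lay close together and far below the NP samples. The mean fell from 173 ± 8.4 CPM to 93.3 ± 1.8 CPM (SD, n = 2). The fitted log2 fold change was -0.86 (SE 0.059, 95% interval -0.99 to -0.74). The log2 ratio was -0.96 in replicate 1 and -0.82 in replicates 2 and 3. Its paralogue Tsc22d1, with 872 to 996 reads in NP and 936 to 1065 in LP, had a log2 fold change of -0.05 (SE 0.053). Per 100 reads of Tsc22d1, Tsc22d3 had 57.1, 55.7 and 49.0 reads across NP, against 30.7, 31.2 and 29.7 across LP, a ratio that does not depend on how the libraries are scaled.

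Zbtb16 (ENSRNOT00000045356) encodes PLZF, a zinc finger repressor of transcription. It was at 60.3, 51.6 and 56.4 CPM in NP and at 10.6, 17.0 and 19.4 CPM in LP. The groups were well apart, and within LP replicate 1 was below the other samples. The mean fell from 57.1 ± 4.4 CPM to 14.4 ± 5.4 CPM (SD, n = 2). The fitted log2 fold change was -1.83 (SE 0.15). The fall was 5.7-fold in replicate 1 and 2.97-fold in replicates 2 and 3. Without LP replicate 1 the log2 fold change was -1.63, and without LP replicate 3 it was -2.01.

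Sgk1 (ENSRNOT00000083452) encodes a kinase that raises the activity of epithelial sodium channels and of sodium transport. It was at 53.8, 53.6 and 50.8 CPM in NP and at 38.2, 30.7 and 33.1 CPM in LP, without overlap. The mean fell from 53.0 ± 1.2 CPM to 35.0 ± 4.4 CPM (SD, n = 2). The fitted log2 fold change was -0.64 (SE 0.098, 95% interval -0.85 to -0.43). The log2 ratio was -0.50 in replicate 1 and -0.71 in replicates 2 and 3. Groups that do not overlap with LP lower were found for 18.9% of all genes tested, so the lack of overlap alone is common in these libraries. Of the other genes of the Sgk1 pathway, 8 of 9 were tested. Of these, 1 was called higher and 1 lower, beside 15.3% and 11.7% of all genes. Scnn1b, a subunit of the epithelial sodium channel, rose by 0.35 on the log2 scale (SE 0.054, adjusted p = 7.8e-05 by edgeR's quasi-likelihood test), from 113 ± 0.94 to 144 ± 0.68 CPM. Nedd4l, the ubiquitin ligase that Sgk1 inhibits, had a log2 fold change of -0.07 (SE 0.083).

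**Figure D2:**
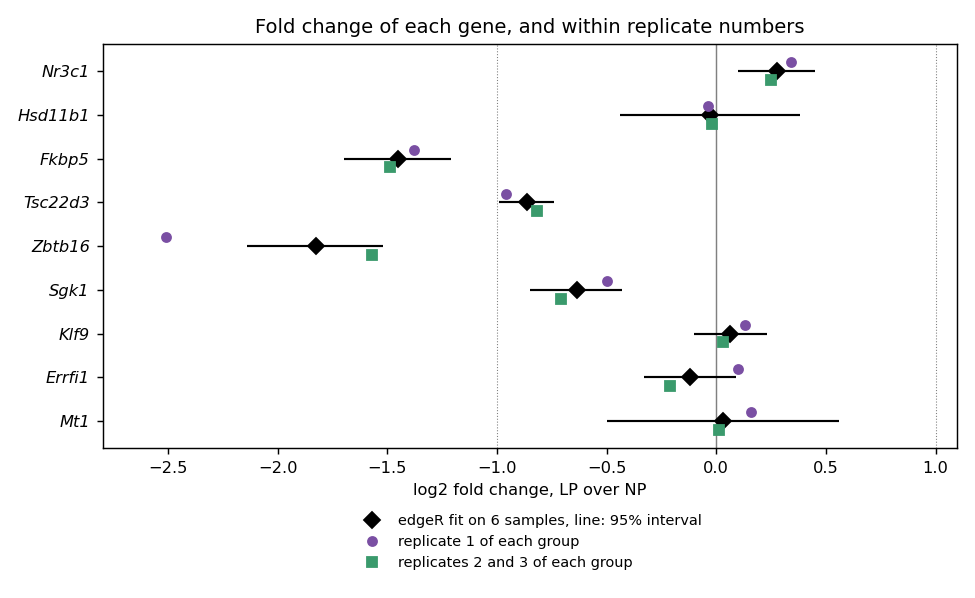
Log2 fold change of LP over NP from the edgeR fit (diamond, with its 95% interval as a line), and the same ratio in replicate 1 (circle) and in replicates 2 and 3 (square) of each group. Zbtb16, Fkbp5, Tsc22d3 and Sgk1 lay below 0 in both, and the circle and square of Zbtb16 were furthest apart, at -2.51 and -1.57.

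The RefSeq sequence before the start of transcription is shown for Fkbp5, Tsc22d3 and Sgk1, because these members fell together, as 250 bases read 5′ to 3′ on the strand of the gene in the build GRCr8. A TATA box (TATAAA) found by the search stands in capitals. RefSeq lists 3 starts each for Tsc22d3 and Sgk1, and the 1 shown for each is the start furthest downstream, which has a TATA box. The windows are chr20:6543556-6543805 for Fkbp5, chrX:109010035-109010284 for Tsc22d3 and chr1:24804832-24805081 for Sgk1, each on the minus strand.
Fkbp5: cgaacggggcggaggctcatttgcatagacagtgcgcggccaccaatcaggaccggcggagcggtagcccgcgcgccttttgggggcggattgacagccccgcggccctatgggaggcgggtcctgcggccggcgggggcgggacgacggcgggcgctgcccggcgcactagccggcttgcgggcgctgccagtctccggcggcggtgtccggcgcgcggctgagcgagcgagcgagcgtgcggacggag
Tsc22d3: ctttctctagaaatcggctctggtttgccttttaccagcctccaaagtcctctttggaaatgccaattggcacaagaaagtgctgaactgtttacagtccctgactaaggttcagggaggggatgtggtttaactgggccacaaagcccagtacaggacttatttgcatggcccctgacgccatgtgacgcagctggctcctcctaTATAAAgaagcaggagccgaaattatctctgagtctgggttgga
Sgk1: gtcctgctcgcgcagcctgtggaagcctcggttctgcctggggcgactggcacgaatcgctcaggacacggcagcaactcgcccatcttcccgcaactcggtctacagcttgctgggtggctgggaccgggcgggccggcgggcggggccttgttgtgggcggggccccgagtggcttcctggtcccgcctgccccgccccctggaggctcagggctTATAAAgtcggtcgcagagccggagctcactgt
Windows were at hand for 8 of 10 genes looked up (Mt1 included), 13 windows in all, and Zbtb16 and Hsd11b1 had no entry. Both strands were searched. The half-site AGAACA of the glucocorticoid response element was found in 0 of the 13 windows and in 17.5% of all 33469 windows of this length. The full palindrome, the half-site facing its reverse complement across 3 free bases, was found in 0.012% of all windows. These letters were not in these windows, which says nothing of elements further away. TATAAA was found in 6 of the 13 windows and in 12.9% of all windows, among them the windows of Tsc22d3 and Sgk1 shown here but not that of Fkbp5.

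Klf9 (ENSRNOT00000019367), a Krüppel-like transcription factor induced by both glucocorticoid and thyroid hormone, was at 104.7, 125.6 and 103.1 CPM in NP and at 114.8, 108.6 and 125.4 CPM in LP. The groups overlapped fully, and the log2 fold change was 0.06 (95% interval -0.10 to 0.23). Errfi1 (ENSRNOT00000085315), an inhibitor of the EGF receptor, was at 45.5, 55.9 and 60.3 CPM in NP and at 48.7, 49.7 and 50.9 CPM in LP. Its groups also overlapped, with a log2 fold change of -0.12 (95% interval -0.33 to 0.09). The intervals of both genes leave out a fall of the size seen for Sgk1. Around Errfi1, 9 of 14 EGF receptor pathway genes were tested and 1 was called, which is 11.1% beside 27.0% of all genes. Lrig1, another negative regulator of EGF family receptors, rose by 0.41 on the log2 scale (SE 0.088, adjusted p = 0.00207 by edgeR's quasi-likelihood test). Erbb3 and Erbb2 had log2 fold changes of 0.15 (SE 0.077) and 0.07 (SE 0.14).

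The metallothioneins are small cysteine-rich proteins that bind zinc and copper, and their genes are induced by metals as well as by glucocorticoids. Mt2A (ENSRNOT00000067391) had 1, 2 and 0 reads across NP, against 0, 1 and 0 across LP, so no comparison was possible at this depth. Mt1 (ENSRNOT00000057898) had 59, 159 and 140 reads across NP, against 74, 169 and 163 across LP. Replicate 1 was the low sample in each group, and the groups did not separate (35.2 ± 20 CPM against 36.6 ± 18 CPM, SD, n = 2, log2 fold change 0.03, 95% interval -0.50 to 0.56). The SE of this fit was 0.25. With replicates 2 and 3 summed and replicate number fitted as a block, the log2 fold change of Mt1 was 0.03 (SE 0.11). Mt3, a metallothionein best known from brain, had 1096, 1048 and 1042 reads across NP, against 807, 848 and 855 across LP. It fell by 0.50 on the log2 scale (SE 0.060, adjusted p = 5.48e-06 by edgeR's quasi-likelihood test). Metallothionein genes are near-identical in places, so reads may have been assigned to the wrong copy or left uncounted, and their levels are uncertain. Of the zinc transporters and other genes of metal handling, 8 of 11 were tested and 3 were called lower, beside 11.7% of all genes. Mt3, Slc30a5 (log2 fold change -0.20, SE 0.068) and Slc39a10 (log2 fold change -0.30, SE 0.10) were called lower, with adjusted p-values of 0.0455 and 0.0394 for the transporters by edgeR's quasi-likelihood test. Both transporter calls were lost with DESeq2 (adjusted p = 0.369 and 0.322) and with replicates 2 and 3 summed (adjusted p = 0.0842 and 0.0792 in edgeR). That of Slc30a5 was also lost without any 1 of the 6 samples, and that of Slc39a10 without any 1 except LP replicate 1.

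The 250 bases before the start of Mt1 and Mt2A (GRCr8, minus strand, chr19:10832976-10833225 and chr19:10838709-10838958) are shown as the pair of windows rich in metal response elements, the sites of the zinc sensor Mtf1. Capitals mark the core of the element, searched as TGCGCNC and TGCACNC on both strands.
Mt1: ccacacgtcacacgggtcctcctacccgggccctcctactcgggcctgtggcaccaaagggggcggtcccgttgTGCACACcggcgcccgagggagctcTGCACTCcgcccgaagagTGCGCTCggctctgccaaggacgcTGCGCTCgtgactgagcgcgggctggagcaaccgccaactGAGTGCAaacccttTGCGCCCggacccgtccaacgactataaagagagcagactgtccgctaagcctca
Mt2A: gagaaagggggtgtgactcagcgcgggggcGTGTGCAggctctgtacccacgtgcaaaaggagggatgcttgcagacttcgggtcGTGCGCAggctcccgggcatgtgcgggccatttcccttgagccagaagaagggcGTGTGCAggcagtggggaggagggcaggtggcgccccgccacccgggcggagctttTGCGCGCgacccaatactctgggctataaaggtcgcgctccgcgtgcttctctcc
Mt1 held 6 cores and Mt2A held 4, and the cores did not overlap. At least 1 core was found in 20.6% of all windows, and 4 or more were found in 0.266%. In the other windows of the members, 1 core was found, before a start of Nr3c1.

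**Figure D3:**
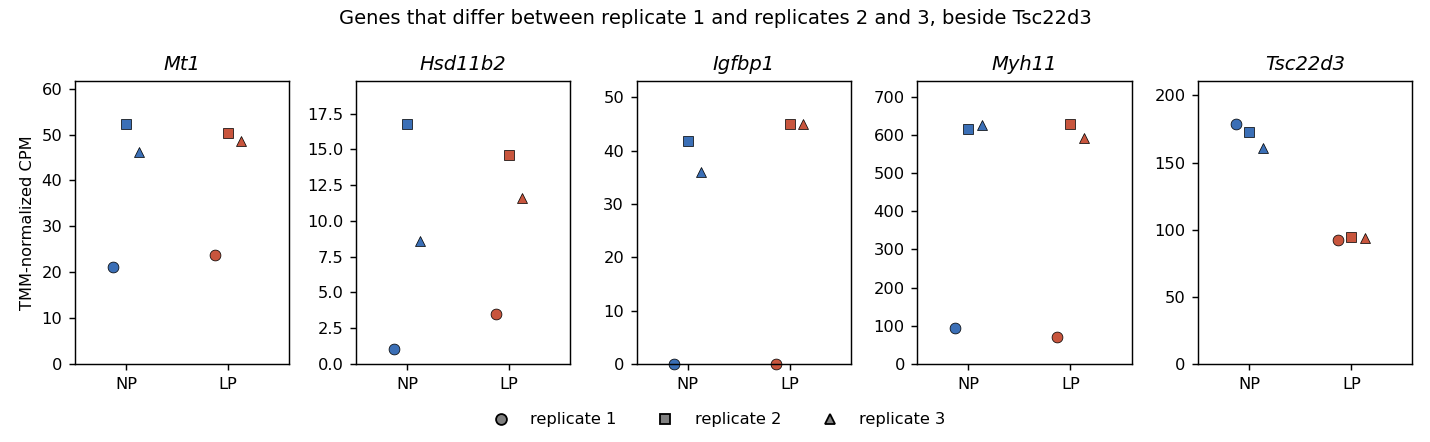
Level of Mt1, Hsd11b2, Igfbp1, Myh11 and, for comparison, Tsc22d3 in the 6 samples, in CPM with TMM normalization on a linear axis from 0 (blue NP, red LP; symbols by replicate number). Mt1, Hsd11b2, Igfbp1 and Myh11 were lowest in replicate 1 of both groups, and Tsc22d3 was split by group instead.

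The split of Mt1 by replicate number was shared by other genes in both groups. Igfbp1, a glucocorticoid-induced gene named here after its values were seen, had 0 reads in replicate 1 of each group, 127 and 109 in NP replicates 2 and 3, and 151 in each of LP replicates 2 and 3. At 0 reads, levels of up to 1.09 CPM in NP and 0.93 CPM in LP remain possible. Myh11, the myosin of smooth muscle, had 266, 1872 and 1897 reads across NP, against 220, 2110 and 1990 across LP. The summed level of 5 smooth muscle markers was 261 and 889 CPM in replicate 1 of NP and LP, and 1700 to 2410 CPM in the other samples. Of the 5, only Des was called, higher in LP (log2 fold change 3.08). It was at 20.8 CPM in NP replicate 1 and 716.8 CPM in LP replicate 1, most of the latter sum. Whether the difference of replicate 1 from the other libraries plays a part in the values of Mt1 and Hsd11b2 was not tested. For Fkbp5, Tsc22d3, Zbtb16 and Sgk1 the fall was present in replicate 1 as well as in replicates 2 and 3.

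The receptor complex was then examined through a list of its chaperones. Of 10 chaperone genes tested, 6 were called lower in LP by edgeR's quasi-likelihood test, beside 11.7% of all genes in the downward direction. The falls were small, with a median log2 fold change of -0.23. Dnaja1, a J-domain protein that loads Hsp70, fell by 0.49 on the log2 scale, from 153 ± 9.3 CPM to 111 ± 1.1 CPM (SD, n = 2, adjusted p = 7e-06). Ptges3, the p23 co-chaperone that stabilizes the hormone-binding form of the receptor, fell by 0.44 (SE 0.073, adjusted p = 0.000171). Hsp90ab1, the constitutive Hsp90, had 3940 to 4260 reads in NP and 3657 to 3957 in LP, and fell by 0.25 (SE 0.035, adjusted p = 2.46e-05) once library sizes were taken into account. Bag1 fell by 0.35 (adjusted p = 0.000709) and Stip1, which bridges Hsp70 and Hsp90, by 0.21 (adjusted p = 0.01) in the same edgeR test. The Stip1 call was lost without LP replicate 2, with replicates 2 and 3 summed, and with DESeq2. Fkbp4, described above, was the other gene called. Cdc37, Dnajb1, Ppp5c and St13 had log2 fold changes between -0.12 and 0.00. Of the list, 3 genes were not among the rows, namely Hsp90aa1, Hspa8 and Ppid.

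Of the receptor coregulators, 4 of 14 were called higher and 1 lower, beside 15.3% and 11.7% of all genes. Carm1, Crebbp and Ncor1 rose by 0.38, 0.26 and 0.23 on the log2 scale (adjusted p between 0.00375 and 0.0117 by edgeR's quasi-likelihood test). Ncoa3, a coactivator of nuclear receptors, fell by 0.31 (SE 0.072, adjusted p = 0.00334 by the same test). Carm1, Crebbp, Ncor1 and Ncoa3 were not called with DESeq2. The Carm1 call was also lost without LP replicate 3 (adjusted p = 0.0635 in edgeR), and that of Ncor1 without NP replicate 2, NP replicate 3 or LP replicate 2 (adjusted p between 0.0522 and 0.088).

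**Figure D4:**
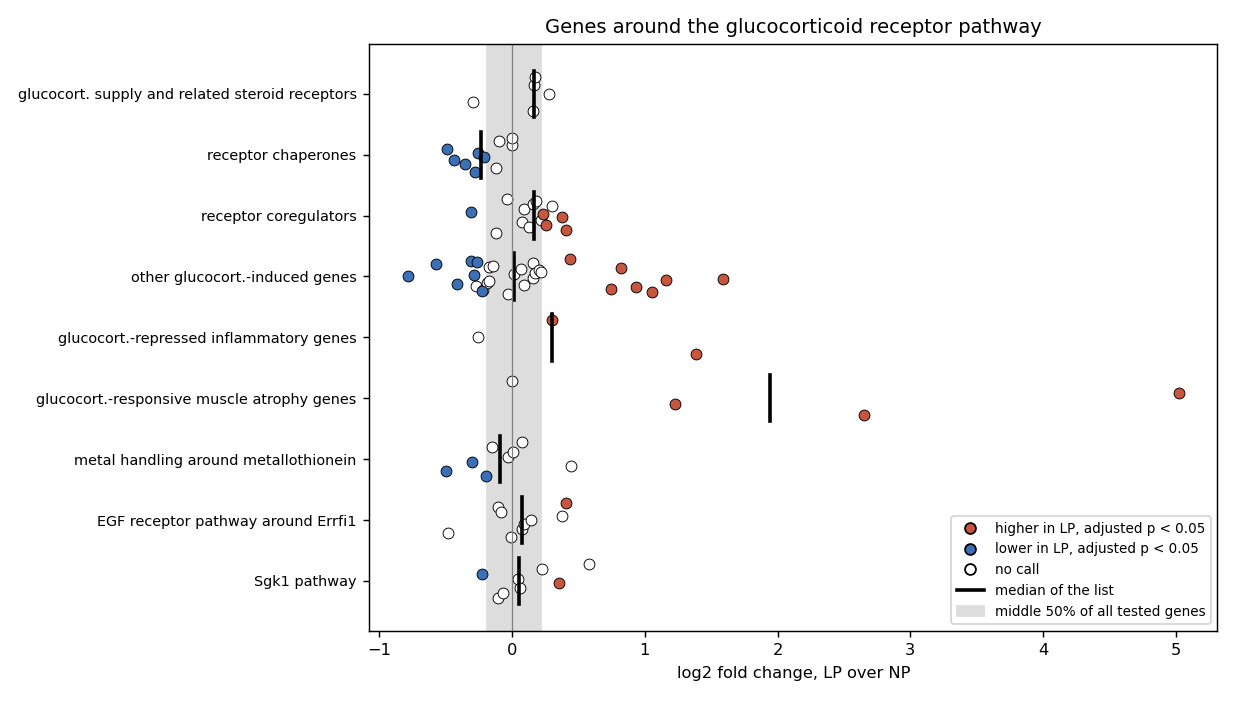
Log2 fold change of LP over NP for each tested gene of 9 lists (points; red and blue, called higher and lower; white, no call), with the median of each list as a vertical bar and the middle 50% of all tested genes in grey. Chaperones lay mostly below 0, other glucocorticoid-induced genes spread to both sides, and muscle atrophy genes reached 5.02.

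Other genes that glucocorticoids are known to induce did not move in 1 direction. Of 30 listed genes 29 were tested, and 7 were called higher and 7 lower, beside 15.3% and 11.7% of all genes, with a median log2 fold change of 0.02. On the lower side were Per1, a clock gene induced by glucocorticoid, with 599, 626 and 660 reads across NP, against 572, 572 and 593 across LP (log2 fold change -0.27, SE 0.058, adjusted p = 0.00196 by edgeR's quasi-likelihood test), and Irs2, an adaptor of the insulin receptor, at -0.41 (adjusted p = 2.13e-05 by the same test). Txnip, Glul, Nfkbia, Angptl4 and Cdkn1c also fell, by 0.31, 0.29, 0.23, 0.57 and 0.79 on the log2 scale. The calls of Nfkbia and Cdkn1c were lost with DESeq2 and with replicates 2 and 3 alone, and that of Cdkn1c also without NP replicate 3, LP replicate 1 or LP replicate 3 (adjusted p between 0.0552 and 0.0848 in edgeR). On the higher side were Dusp1, a phosphatase that inactivates MAP kinases, with 160, 183 and 171 reads across NP, against 352, 336 and 400 across LP, a log2 fold change of 0.93 (SE 0.077, adjusted p = 4.96e-08 by the same test). Cdkn1a, Pdk4 and Ndrg2 rose by 1.16, 1.06 and 1.59 on the log2 scale, and Bcl6, Cebpb and Rhob by 0.82, 0.74 and 0.43. Cebpb was low in NP replicate 1, at 75 reads against 172 and 142 in the other NP samples, and its call was lost with DESeq2 (adjusted p = 0.106). Cebpd, Ddit4, Ndrg1, Cited2, Crispld2 and Foxo3, the 6 other genes of this list with the highest levels, had log2 fold changes between -0.19 and 0.16 and were not called.

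The rise of skeletal muscle markers in LP went together with the genes of muscle atrophy that glucocorticoids induce. Of 4 tested, 3 were called higher, beside 15.3% of all genes. Trim63, a ubiquitin ligase of muscle, had 2, 1 and 3 reads across NP, against 76, 82 and 71 across LP. Fbxo32, another such ligase, rose by 1.23 (adjusted p = 4.85e-05) and Mstn, the growth inhibitor myostatin, by 2.65 on the log2 scale (adjusted p = 9.51e-05, both by edgeR's quasi-likelihood test). Klf15 had a log2 fold change of 0.00 (SE 0.15). Of the muscle markers, 8 of 9 tested were called higher, against the same 15.3% of all genes, and Mylpf had 0 reads in all NP samples. Pdk4 and Ndrg2 of the list above are also expressed in muscle. The part of the muscle RNA in these values was not tested.

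Of the inflammatory genes that glucocorticoids repress, 3 of 13 had enough reads. Cxcl10, a chemokine induced by interferon, rose from 4.14 ± 0.74 CPM to 10.3 ± 0.45 CPM (SD, n = 2, log2 fold change 1.38, SE 0.27, adjusted p = 0.000733 by edgeR's quasi-likelihood test). Icam1, an adhesion molecule, rose by 0.30 (SE 0.091, adjusted p = 0.0208 by the same test), a call lost with DESeq2 (adjusted p = 0.264) and without NP replicate 1, NP replicate 3 or LP replicate 1. Vcam1 had a log2 fold change of -0.26 (SE 0.28). Il1b, Tnf, Ccl2 and Ptgs2 had at most 6 reads in any sample, so nothing can be said of them at this depth.

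Cell type markers were examined beside the fall of Fkbp5, Tsc22d3, Zbtb16 and Sgk1, with 15.3% of all genes called higher and 11.7% lower as the background. Of 10 follicular cell markers 3 were called lower, Slc5a5, the iodide transporter, Tshr, the thyrotropin receptor, and Dio1, a deiodinase (log2 fold changes -0.94, -0.68 and -0.43). Another 3 were called higher, Duoxa2, Duox2 and Nkx2-1 (log2 fold changes 0.478, 0.291 and 0.275). The follicular sum was 232000 to 250000 CPM in NP and 242000 to 259000 CPM in LP. It was nearly all Tg, so it does not describe the other follicular markers. The C cell and parathyroid sums were lower in LP, and 1 marker of each was called lower, Calca and Pth, at -0.32 and -0.30. The other markers were not called. Chga, Chgb and Calcb of the C cell were at -0.01, -0.14 and -0.19, and Gcm2 and Casr of the parathyroid at 0.18 and 0.10. Of 5 endothelial markers, 4 were called lower, and their summed level was 496 to 522 CPM in NP and 411 to 430 CPM in LP. Macrophage markers summed to 114 to 134 CPM in NP and 129 to 148 CPM in LP, with 0 of 7 called by edgeR and by DESeq2 and 2 at an unadjusted p-value below 0.05. Adipocyte markers summed to 158 to 181 CPM in NP and 232 to 261 CPM in LP, with 1 of 7 called higher, Lpl. T cell markers summed to at most 9.86 CPM and B cell markers to at most 1.19 CPM in any sample. Fibroblast markers summed to 1170 and 1430 CPM in replicate 1 of NP and LP and to 2050 to 2370 CPM in the other samples, with 1 of 5 called lower, Dcn, at -0.20. The groups overlapped for Dcn (adjusted p = 0.0468 by edgeR's quasi-likelihood test), and DESeq2 called 0 of the 5. Schwann cell markers summed to 39.4 to 47.7 CPM in NP and 73.2 to 82.7 CPM in LP, with 2 of 4 called higher. Airway markers summed to 1.08 to 2.97 CPM in NP and 4.76 to 7.37 CPM in LP. The 1 tested, Scgb1a1, had few reads, 1, 6 and 8 across NP, against 20, 16 and 15 across LP. It was called higher (log2 fold change 1.595, adjusted p = 0.00926 by edgeR's quasi-likelihood test), while DESeq2 called 0 of 1 airway marker. The part of these cells in the fall of the members was not tested.

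To describe which genes followed the same course over the 6 samples, the log2 level of each of the other 11737 genes tested was correlated with that of the receptor, Fkbp5 and Zbtb16. The genes closest to Nr3c1 were Aldh5a1, Zak and Ankrd40 (Pearson r of 0.998, 0.997 and 0.997). Those closest to Fkbp5 were Plxna2, Sult1d1 and Gls2, and those closest to Zbtb16 were Jam3, Lins and Clstn1. With 6 samples that share 2 groups and, within each, a pair of near-identical libraries, such values are common. An r above 0.95 was reached by 186, 405 and 320 genes for Nr3c1, Fkbp5 and Zbtb16.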

How the data were processed

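Polyadenylated RNA of whole rat thyroid was sequenced in 3 NP and 3 LP samples. The authors deposited raw counts, whole numbers of reads per gene with 1 transcript identifier and 1 symbol per gene. Per the labels, reads were aligned to the rn5 build with TopHat 1.4.0 and counted with HTSeq. The strand setting and the rule that picked 1 transcript per gene are not given in the sources used here, so reads shared by overlapping or antisense genes cannot be told apart. Library totals lay between 2752144 and 3449857 reads.

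Counts were analysed in R 4.3.3. LP was compared with NP by the quasi-likelihood test of edgeR 4.0.16 (with limma 3.58.1) on the 6 samples, with TMM factors, the default expression filter (11738 of 15388 genes kept) and Benjamini-Hochberg adjustment over all genes kept. A gene was called at an adjusted p-value below 0.05. Standard errors were taken from the F statistic (size of the log2 fold change over the root of F). CPM were computed from TMM-scaled library sizes. On simulated counts with 200 genes changed by 1 on the log2 scale, 97.5% were recovered. DESeq2 1.42.0 recovered 86.5% and served as an alternative. The simulated samples were independent draws, with the same dispersion for every gene. They held neither the near-identical replicates 2 and 3 nor the difference of replicate 1. These shares therefore do not describe how well changes are found in the real samples. Other alternatives covered normalization, the filter, the threshold, each sample left out, replicates 2 and 3 summed, and a replicate block. The use of replicates 2 and 3 alone was added after seeing the data.

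Replicate numbers come from the labels. Deviations from the group means correlated between samples of the same number at 0.493, 0.223 and 0.192. Replicates 2 and 3 of opposite groups correlated as well, at 0.216 each way. These values set replicate 1 apart in both groups but do not pair 2 with 2 or 3 with 3. The main test used no pairing, and the numbers served as a block only in alternative settings.

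The members and the gene lists were chosen with earlier results of these data known. The genes named were all members, the called genes of each list with at most 6 others of the highest level (some of these are not reported here), and the 3 genes closest to Nr3c1, Fkbp5 and Zbtb16. Mt1, Igfbp1, the marker genes named with values, the inflammatory genes below the filter and, in the observations, Acta1 and Cnn1 were named after their values were seen. P-values measure the spread between these 6 samples, which for replicates 2 and 3 may be technical. Promoter windows were taken from RefSeq (GRCr8), cut to the 250 bases before the start.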

Additional observations from a re-analysis of the deposited data

How the results depend on the processing

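Over 17 alternative settings, 4 members were called lower in each, and 2 members passed the fold and the threshold in each. The single member called higher, Nr3c1, was not called (count 0 in place of 1) with library totals as the only scaling, with DESeq2, with an adjusted p-value below 0.01, and with replicates 2 and 3 alone, the setting added after seeing the data. When each sample was left out in turn the count lay between 0 and 1, at 0 without NP replicate 1, NP replicate 2 or LP replicate 2. The cause was not tested. Of 135 alternative values of the members, 128 kept their side of the threshold, 7 lost the call, all of them of Nr3c1, and 0 reversed. A change of direction was counted as reversed only where the gene was called in 1 of the 2 fits. Genes not called could change direction near 0, as Hsd11b1 did (-0.03, and 0.06 without LP replicate 3) and Klf9 (0.06, and -0.01 with library totals). Of 1609 such values of other listed genes, 54 lost the call, 14 gained it and 0 reversed. The number of genes called among all tested fell from 3168 to 1843 with DESeq2 and to 2107 at an adjusted p-value below 0.01. Library totals moved the median log2 fold change of all genes from -0.009 to -0.081.

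With the replicate number as a block, 1 member was called higher and 4 lower, as without it, and 3784 genes were called among all. With this block, Anxa1, Cited2, Dusp6 and Klf4 gained a call among the listed genes and no call was lost. With replicates 2 and 3 summed and the block kept, Cited2 was called (adjusted p = 0.0393 in edgeR), and Anxa1, Dusp6 and Klf4 were not (adjusted p = 0.0566, 0.0827 and 0.0627). Depth limits the statements on Hsd11b1, with 30 to 42 reads per sample, and on Mt2A, with at most 2.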

Other observations

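The contractile genes that separated replicate 1 from the other samples were present in both groups. Acta1, skeletal actin, had 0 reads in replicate 1 of NP and of LP, while the other samples held 166 and 144 (NP) or 186 and 185 (LP) reads. Cnn1, the smooth muscle calponin, had 9, 268 and 258 reads across the NP samples against 8, 311 and 283 across the LP samples. Acta1 thus did not follow the 8 skeletal muscle markers called higher in LP. The summed share of all skeletal muscle markers, Acta1 included, was 0.00164 to 0.00722% of reads in NP and 0.323 to 0.338% in LP. In NP replicates 2 and 3 much of that share was Acta1.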
